A study of Mus musculus with 2 samples.

Results

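Axon guidance ligands and receptors were followed through the cell types of the mouse embryonic brain at E12.5 and set side by side in libraries of the genotypes Foxq1flox/flox and Foxq1iECKO. The gene set was taken by symbol: semaphorins (Sema), plexins of the A, B, C and D classes (Plxn), ephrins (Efna, Efnb), Eph receptors (Epha, Ephb), roundabout receptors (Robo), Slit1, Slit2 and Slit3, the Unc5 receptors, and Ntn1, Ntn3, Ntn4 and Ntn5. It held 66 of the 31253 genes listed: 20 semaphorins, 14 Eph receptors, 9 plexins, 8 ephrins, 4 netrins, 4 roundabouts, 4 Unc5 receptors and 3 slits.

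The study, titled for a role of endothelial FOXQ1 in vessel growth of the central nervous system and in formation of the blood brain barrier, sorted brain cells with CD31 microbeads and sequenced them one by one in microwells. CD31 is a surface protein of endothelial cells, platelets and some leukocytes, and FOXQ1 is a forkhead transcription factor. One group is written Foxq1flox/flox in the labels and carries floxed Foxq1 alleles, so it is a floxed control and not a wild type. The other is written Foxq1iECKO. The labels name neither the Cre driver, nor an inducing agent and its time, nor the number of embryos pooled. Each group was 1 library, so no test between genotypes was possible. Every difference below compares 2 libraries, and every interval is an exact 95% interval that covers counting error only.

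Guidance cues were first described as signals that attract or repel the tips of growing axons. Semaphorins signal through plexins, several of the secreted ones with a neuropilin as co-receptor. Ephrins are tethered to membranes and bind Eph receptor kinases on the neighbouring cell, with signals passing in both directions. Slits bind roundabouts, and netrins bind Unc5 receptors and DCC. Endothelial cells reuse members of all these families: ephrin-B2 and EphB4 mark arteries and veins, and Plexin-D1, Robo4 and Unc5b are receptors known from vessels.

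The matrices held 15837 barcodes and 76580165 UMIs in the Foxq1flox/flox library and 15108 barcodes and 72445925 UMIs in the Foxq1iECKO library. After filters on cells and removal of predicted doublets, 13399 and 12592 cells were used. The guidance genes gave 204947 and 187914 UMIs, or 0.268% and 0.259% of each library. Both libraries contained 270 barcodes in common, 173 of them among the cells used. The genotype label was checked first on its target. In endothelial-like cells Foxq1 stood at 439 CPM (428 to 449) and 148 CPM (141 to 156) (log2 ratio -1.57, interval -1.65 to -1.49), so the library labelled Foxq1iECKO was lower and transcripts remained. Within endothelial subclusters, described below, the difference was smaller: -1.06 (-1.16 to -0.97) in those with barrier markers and -0.94 (-1.12 to -0.77) in the others. In classes named below, Foxq1 stood at 615 and 538 CPM in pericyte-like cells (-0.19, -0.34 to -0.04) and 11.7 and 13.2 CPM in fibroblast-like cells (0.17, -0.16 to 0.52). It was also lower in macrophage-like cells, at 12.6 and 7.55 CPM (-0.74, -1.19 to -0.30), and in neuron-like cells, at 11.1 and 5.37 CPM (-1.05, -2.14 to -0.09).

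The cell label, endothelial cells, described a minority of the cells. Clusters named from marker lists gave 2317 and 1634 endothelial-like cells, in which 14 of 14 endothelial markers reached 10 CPM, the UMIs of a gene per 1000000 UMIs of its class. The other cells used here were 277 and 255 lymphatic endothelial-like, 282 and 310 pericyte-like, 2579 and 2586 fibroblast-like, 1410 and 950 cartilage-like, 1202 and 1288 radial glia-like and 1417 and 631 neuron-like cells. A cluster led by Ibsp and Sp7 (384 and 589 cells) and one led by Neurod6 and Neurod2 (465 and 569 cells) are called by their leading genes. A cluster of 471 and 824 cells carried endothelial and pericyte markers together and entered neither class. Vessels below are endothelial-like, lymphatic and pericyte-like cells. Mesenchyme is fibroblast-like and cartilage-like cells with the Ibsp cluster, and neural cells are radial glia-like and neuron-like cells with the Neurod6 cluster. The guidance genes were left out of the genes that placed the cells, so their levels did not form the clusters. Where a pair of values is given, the Foxq1flox/flox library comes first. The chemistry tags the 3′ end of a transcript once, so CPM were not divided by transcript length. Whether transcripts of different genes were caught equally well was not tested, so rankings between genes below are rankings of CPM only.

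Of the 66 genes, 52 reached 10 CPM in vessels, mesenchyme or neural cells in at least 1 library. The remaining 14 stayed below that level in the 3 compartments and were Plxnb3, Efna4, Sema6c, Epha10, Epha8, Ephb6, Epha1, Sema4f, Ntn5, Sema3b, Sema3f, Unc5a, Sema6b and Sema4g. A gene was taken as highest in one compartment where it reached 10 CPM and 2 or more times each of the others in both libraries. By that rule 8 genes were highest in vessels, 8 in mesenchyme and 12 in neural cells, and 24 met the rule in none. One of the 24 was Slit1, which stood at 11.04 and 8.99 CPM in neural cells and at most 0.671 and 0.352 elsewhere, and missed the rule on the minimum level alone. Over the 10418 genes measured, 6.11% were highest in vessels, 5.51% in mesenchyme and 9.75% in neural cells. The class with the highest level was the same in both libraries for 49 of the 66 genes, over 14 classes. That count takes in the 14 genes below the minimum, some with few UMIs, such as Ntn5 with 2 and 10. No such share was taken over all genes.

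**Figure D1:**
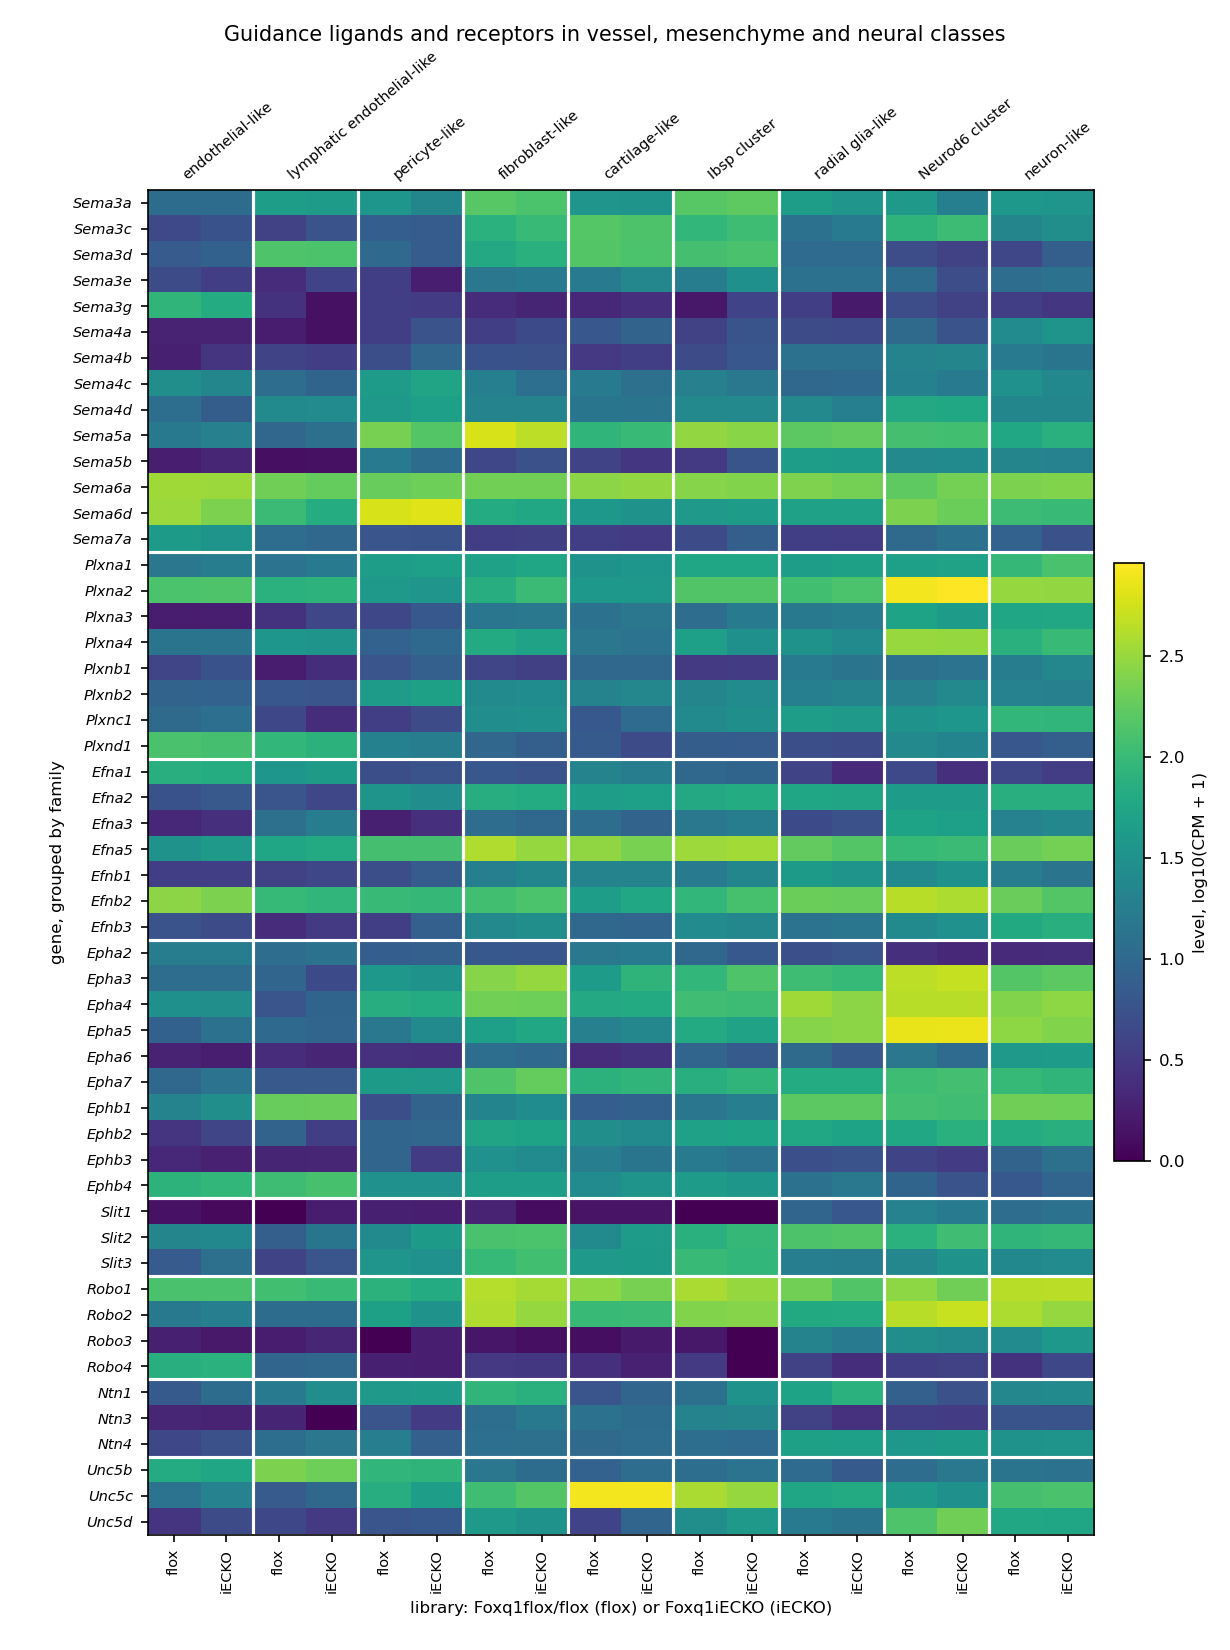
Levels of the 52 measured guidance genes (vertical axis, grouped by family) in 9 cell classes and both libraries (horizontal axis), as log10(CPM + 1) in colour. Plxnd1, Robo4 and Sema3g are bright in endothelial-like cells, Unc5c in cartilage-like cells and Plxna2 and Epha5 in the Neurod6 cluster, in both libraries.

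The 8 genes highest in vessels came from 6 families: the ligands Sema6d, Sema3g, Sema7a and Efna1 and the receptors Plxnd1, Ephb4, Robo4 and Unc5b. Robo4, the endothelial roundabout, stood at 56.7 and 56.3 CPM in vessels, 1.92 and 1.43 in mesenchyme and 2.30 and 2.13 in neural cells. Sema3g, a secreted semaphorin that acts through neuropilins, stood at 67.7 and 46.3 CPM in vessels, 1.20 and 1.43 in mesenchyme and 2.83 and 1.39 in neural cells. Their vessel level was 24.7 and 23.9 times that of the next compartment, in whichever library gave the smaller ratio. Neural crest-like cells (28 and 78 cells), which belong to none of the compartments, held Sema3g at 84.6 CPM (42.2 to 151) and 153 CPM (116 to 198), above its vessel level. Plxnd1, the plexin that binds Sema3e without a neuropilin, was at 115 and 103 CPM in vessels, 7.34 and 6.06 in mesenchyme and 8.04 and 8.34 in neural cells, a ratio of 12.3. The ratio was 8.01 for the netrin receptor Unc5b and 5.82 for Efna1, an ephrin anchored to the membrane by a lipid. It was 5.06 for the lipid-anchored Sema7a. Sema6d and Ephb4 had the smallest vessel excess, with ratios of 2.63 and 2.14. Sema6d is a transmembrane semaphorin, and it was also found in neural cells at 105 and 91.4 CPM.

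The sequence before the start of 4 of these genes is shown because these genes were among those read mostly from vessel cells. Windows come from RefSeq on GRCm38.p6 and hold the 250 bases upstream of the annotated start, written 5′ to 3′ on the strand of the gene. They lie at chr14:31217623-31217872 on the plus strand for Sema3g, chr6:115995006-115995255 on the minus strand for Plxnd1, chr10:60831582-60831831 on the minus strand for Unc5b and chr9:57939862-57940111 on the plus strand for Sema7a. Robo4 and Efna1 are not shown, since 75 and 191 bases of their windows lie inside the GENCODE gene model. For Sema3g 13 bases did so, and for the other shown genes 0. Capitals mark matches to the ETS core AGGAAG or the GC box GGGCGG on either strand.
Sema3g: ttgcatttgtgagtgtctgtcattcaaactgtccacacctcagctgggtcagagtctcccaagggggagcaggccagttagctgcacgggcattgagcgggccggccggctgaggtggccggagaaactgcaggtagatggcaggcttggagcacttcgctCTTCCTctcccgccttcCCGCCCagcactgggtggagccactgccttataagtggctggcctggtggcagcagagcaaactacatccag
Plxnd1: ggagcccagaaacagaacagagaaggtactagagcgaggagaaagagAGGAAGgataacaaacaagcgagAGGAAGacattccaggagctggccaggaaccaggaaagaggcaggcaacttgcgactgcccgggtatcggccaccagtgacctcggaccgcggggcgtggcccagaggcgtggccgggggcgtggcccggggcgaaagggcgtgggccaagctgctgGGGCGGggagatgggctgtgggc
Unc5b: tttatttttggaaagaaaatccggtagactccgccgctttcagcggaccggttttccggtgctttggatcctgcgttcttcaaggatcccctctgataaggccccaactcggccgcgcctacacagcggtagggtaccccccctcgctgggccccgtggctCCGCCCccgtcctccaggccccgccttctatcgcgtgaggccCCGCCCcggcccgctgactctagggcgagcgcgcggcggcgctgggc
Sema7a: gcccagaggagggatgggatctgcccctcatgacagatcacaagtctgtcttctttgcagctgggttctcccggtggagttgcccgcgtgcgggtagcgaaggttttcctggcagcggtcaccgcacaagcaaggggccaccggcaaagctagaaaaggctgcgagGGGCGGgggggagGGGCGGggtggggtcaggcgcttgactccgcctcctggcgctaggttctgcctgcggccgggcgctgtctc
Sema3g held 1 ETS core and 1 GC box, Plxnd1 held 2 ETS cores and 1 GC box, and Unc5b and Sema7a held 2 GC boxes each. No 2 different motifs overlapped. A further motif, the forkhead core TGTTTAC, had no match in the 4 windows. A window was found for 57 of the 66 guidance genes, and 0 of the 57 held that forkhead core, against 836 of the 27025 genes with a window (3.09%). The GC box was in 41 of the 57 (71.93%) against 32.94% of all windows, and the ETS core in 19 (33.33%) against 29.15%. Among the 8 genes highest in vessels the GC box was in 7 windows and the ETS core in 3. These motifs were chosen after the windows had been read, and a match is letters only. The 27025 genes were not limited by kind of gene or by level in these cells, so the shares come from unlike sets. The windows of Robo4 and Efna1, not shown above, were counted.

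In endothelial-like cells 31 guidance genes reached 10 CPM, 11 reached 50 CPM and 2 had no UMI. Transmembrane semaphorins led the list. Sema6a, a ligand of A-class plexins, stood at 345 CPM (336 to 355) and 323 CPM (312 to 334). Sema6d followed at 323 CPM (314 to 332) and 236 CPM (227 to 246). Efnb2, the ephrin of arteries, came next at 275 CPM (267 to 284) and 233 CPM (224 to 243), whereas its venous receptor Ephb4 stood at 80.4 and 89.8 CPM. These 3 ligands were above every receptor of the set. Among receptors Plxna2, Robo1 and Plxnd1 lay close together at 131 and 137 CPM, 128 and 127 CPM and 127 and 121 CPM. Sema3g (85.1 and 64.3 CPM), Robo4 (70.1 and 76.2 CPM), Efna1 (71.8 and 66.7 CPM) and Unc5b (64.8 and 54.6 CPM) made up the rest of those at 50 CPM or more. Slits and netrins, which are ligands of Robo and Unc5 receptors, were low in these cells. Slit2 was the most abundant slit at 21.3 and 22.9 CPM, and Ntn1 the most abundant netrin at 5.87 and 10.1 CPM. Sema3e, the direct ligand of Plxnd1, stood at 3.83 and 2.56 CPM.

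Lymphatic endothelial-like cells and the arterial subcluster differed from the pooled endothelial profile. In lymphatic cells Unc5b stood at 234 and 200.5 CPM and Ephb1, an EphB receptor, at 185 and 191 CPM. Sema3d, a secreted semaphorin, was at 138 and 132 CPM there against 6.0 and 7.18 in endothelial-like cells. Robo4 was low in lymphatic cells, at 8.12 and 9.03 CPM. The arterial subcluster, named from 8 of 9 arterial markers, held 81 and 62 cells. Efnb2 reached 853 CPM (773 to 939) and 713 CPM (626 to 809) in it, Sema3g 449 and 345 CPM and Unc5b 275 and 190.1 CPM. Efnb2 is a textbook arterial gene, and its level there was the highest of the set in that subcluster in both libraries.

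Pericyte-like cells had 27 measured guidance genes, 10 of them at 50 CPM or more, and 7 with no UMI. Sema6d was the highest at 596 CPM (554 to 642) and 654 CPM (611 to 700.0), above its endothelial level in both libraries. Sema5a, a transmembrane semaphorin with thrombospondin repeats, stood at 220.4 and 147 CPM, and Sema6a at 183 and 199 CPM. The ephrins Efna5 and Efnb2 were at 119 and 121 CPM and 98.2 and 91.9 CPM. Receptors were lower: Unc5b stood at 88.2 and 83.3 CPM, Robo1 at 79.0 and 64.6 CPM, Epha4 at 68.2 and 65.4 CPM and Unc5c at 68.2 and 43.6 CPM. Sema4c, a ligand of Plxnb2, stood at 40.8 and 53.0 CPM. Fibroblast markers were found in the same cells, with 11 of 11 at 10 CPM or more in each library and a summed level of 4929 and 3385 CPM. Their share in the pericyte-like values was not tested.

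Endothelial-like cells divided into 8 subclusters, 3 of which carried 7 or more of 12 barrier markers such as Slco1c1 and Mfsd2a, transporters of brain endothelium. These barrier subclusters held 944 of 2317 cells (40.7%, 38.7 to 42.8%) in the Foxq1flox/flox library and 506 of 1634 (31.0%, 28.7 to 33.3%) in the Foxq1iECKO library. Among the other subclusters, 1 of 290 and 219 cells was led by macrophage genes such as Ccl3, Ccl4 and Mrc1. It had 14 of 14 endothelial markers at 10 CPM or more, and macrophage markers summed to 165 and 176 CPM in it, against 14.5 to 61.3 CPM in the rest. It stayed in the class, and the genes past each rule are also given below without it. Among the 31 genes measured, 3 were 2 or more times higher in barrier subclusters in both libraries and 1 was that much lower, against 4.11% and 2.61% of 8442 genes. Sema6d stood at 505 against 193 CPM in the Foxq1flox/flox library (log2 ratio 1.39, interval 1.31 to 1.48) and 457 against 162 CPM in the Foxq1iECKO library (1.5, 1.38 to 1.62). Sema7a stood at 63.3 against 23.4 CPM in the Foxq1flox/flox library (log2 ratio 1.44, interval 1.20 to 1.68) and 58.5 against 23.7 CPM in the Foxq1iECKO library (1.30, 0.98 to 1.62). Slit2, the ligand of roundabouts, stood at 31.4 against 14.1 CPM in the Foxq1flox/flox library (log2 ratio 1.16, interval 0.83 to 1.48) and 37.0 against 18.2 CPM in the Foxq1iECKO library (1.03, 0.64 to 1.42). These were 2 membrane-bound semaphorins and 1 secreted slit. Ephb1 went the other way, at 5.38 against 30.8 CPM in the Foxq1flox/flox library (log2 ratio -2.52, interval -3.07 to -2.01) and 6.63 against 35.3 CPM in the Foxq1iECKO library (-2.41, -3.21 to -1.71). It is the same receptor that was high in lymphatic cells. With the subcluster led by macrophage genes left out, these 4 still passed, and Epha7 passed as well (log2 ratios 1.73 and 1.26).

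**Figure D2:**
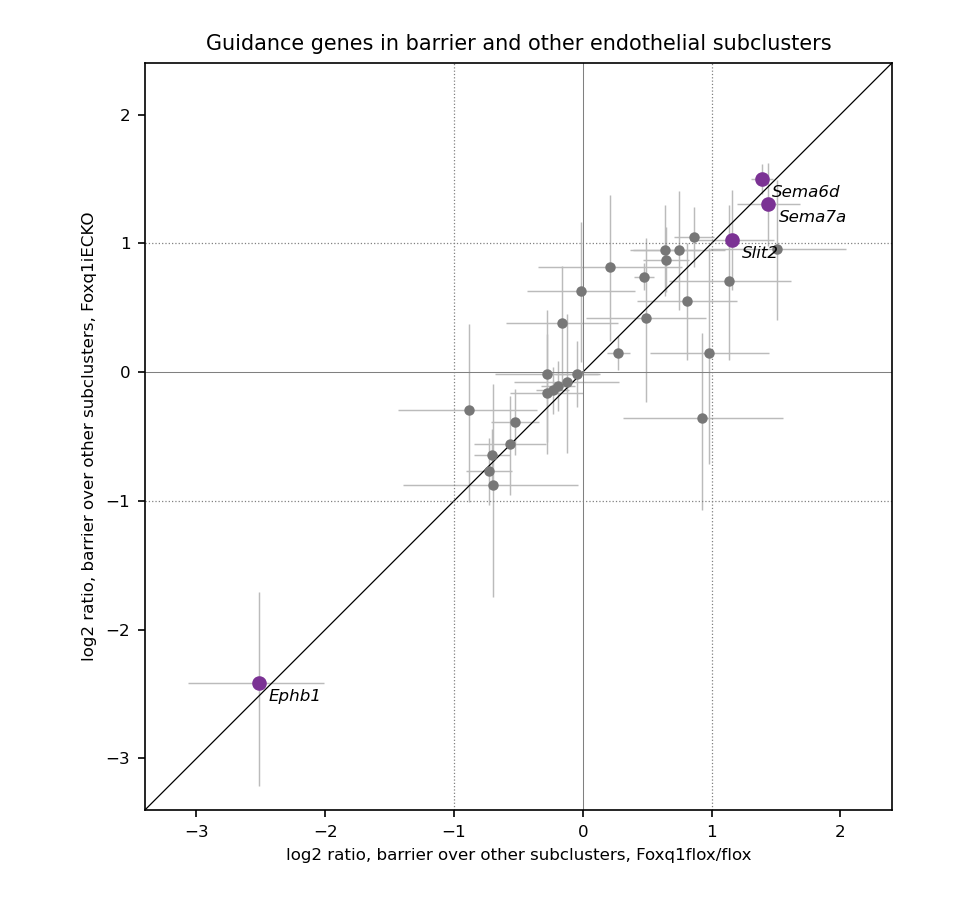
Log2 ratio of CPM in barrier over other endothelial subclusters for the 31 measured guidance genes, in the Foxq1flox/flox library (horizontal axis) and the Foxq1iECKO library (vertical axis), with 95% counting intervals as bars and dotted lines at 2-fold. Purple points are Sema6d, Sema7a and Slit2 (upper right) and Ephb1 (lower left), which pass 2-fold in both libraries, and the diagonal marks equal ratios.

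The genes that reached 2-fold in 1 library but not in the other were Sema3g, Epha7 and Epha3. Sema3g had log2 ratios of 0.86 and 1.05, and the EphA receptors Epha7 and Epha3 had 1.51 and 0.95 and 1.14 and 0.71. The share of cells with a Sema6d UMI, after each cell was thinned to 2000 UMIs, was 60.1% and 56.3% in barrier subclusters and 35.1% and 29.0% in the others. Median depth was 4536 and 3120 UMIs a cell in barrier subclusters and 4138 and 4441 in the others. Thinning left out 358 and 322 of the endothelial-like cells.

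The 8 genes highest in mesenchyme were Unc5c, Sema3a, Sema3c, Sema3d, Sema5a, Slit3, Ephb3 and Ntn3. Unc5c, a netrin receptor, stood at 14.8 and 19.7 CPM in vessels, 375 and 329 in mesenchyme and 79.8 and 66.9 in neural cells. It peaked in cartilage-like cells at 806 CPM (785 to 827) and 804 CPM (778 to 829), the highest level of any guidance gene in that class. Sema5a stood at 26.3 and 28.6 CPM in vessels, 393 and 342 in mesenchyme and 112 and 141 in neural cells. The secreted semaphorins Sema3c and Sema3d were also high in cartilage-like cells, at 151 and 133 CPM and 147 and 132 CPM. Over mesenchyme they stood at 103 and 110 CPM and 95.6 and 96.6 CPM. Lymphatic endothelial-like cells, which are pooled into vessels, held Sema3d above that, at 138 and 132 CPM. Neural crest-like cells, in no compartment, held Sema3c at 192 and 192 CPM and Sema3d at 223 and 166 CPM.

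Fibroblast-like cells had 40 measured guidance genes and 23 at 50 CPM or more. Sema5a led at 594 and 458 CPM. The Slit receptors Robo1 and Robo2 stood at 428 and 360.1 CPM and 397 and 309.6 CPM, beside their ligands Slit2 at 127 and 129.9 CPM and Slit3 at 95.1 and 113 CPM. Both sides of this pathway were read from the same class. The ephrins were Efna5 (402 and 308 CPM), Efnb2 (113 and 129.8 CPM) and Efna2 (68.1 and 65.1 CPM). Their Eph receptors were Epha3 (262 and 309 CPM), Epha4 (209 and 203 CPM), Epha7 (138 and 178 CPM), Ephb2 (51.9 and 50.5 CPM) and Epha5 (45.7 and 57.1 CPM). Secreted semaphorins, which repel many axons, were Sema3a (154 and 132 CPM), Sema3c (75.4 and 101 CPM) and Sema3d (60.5 and 74.4 CPM). Membrane semaphorins were Sema6a (211 and 211 CPM) and Sema6d (65.6 and 57.3 CPM). A-class plexins, which carry the signal of class 3 semaphorins, were Plxna2 (69.0 and 102 CPM), Plxna4 (62.7 and 49.1 CPM) and Plxna1 (47.6 and 55.0 CPM). The netrin pathway gave Unc5c at 113 and 145 CPM and Ntn1 at 85.7 and 73.5 CPM.

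The 4 fibroblast-like clusters were not alike. Epha3 stood at 744 and 728 CPM in the cluster led by Tnn and Pax9, against 55.5 and 98.6 in the cluster led by Twist2 and 54.3 and 77.0 in the one led by Cldn11 and Calca. Ntn1 was highest in the Twist2 cluster at 168 and 193 CPM. Sema5a stood at 701 and 616 CPM there and at 190.1 and 149 CPM in the Cldn11 cluster. The cluster led by Tnn held 709 and 877 cells, that led by Twist2 786 and 537, that led by Aldh1a2 833 and 676 and that led by Cldn11 251 and 496. A pooled fibroblast-like level therefore weighs these clusters differently in each library.

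The 12 genes highest in neural cells were Epha4, Epha5, Ephb1, Plxna2, Plxna3, Plxna4, Plxnb1, Sema4b, Sema5b, Robo3, Unc5d and Ntn4. Several were also read elsewhere, such as Epha4 at 149 and 154 CPM in mesenchyme and Ephb1 at 43.9 and 58.0 CPM in vessels. That vessel level is a pool. Lymphatic endothelial-like cells alone held Ephb1 at 185 and 191 CPM, above its pooled neural level of 172 and 157 CPM. Neuron-like cells held it at 206 and 201 CPM. Receptors outnumbered ligands among them, with Sema4b, Sema5b and Ntn4 as the ligands. Sema4b stood at 14.6 and 14.1 CPM in neural cells, below its 34.7 and 36.8 CPM in macrophage-like cells, which belong to no compartment. Plxna2, a receptor of Sema6a, stood at 117 and 117 CPM in vessels, 64.5 and 92.4 in mesenchyme and 316 and 342 in neural cells. Epha5, a receptor of A-class ephrins, stood at 7.92 and 12.2 CPM in vessels, 37.8 and 47.7 in mesenchyme and 351 and 379.9 in neural cells.

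Radial glia-like cells, the stem cells of the embryonic brain wall, had 37 measured guidance genes and 17 at 50 CPM or more. Epha4 led at 337 and 279 CPM, and Epha5 followed at 261 and 276 CPM. Ephb1 (159.7 and 160.4 CPM), Epha3 (107 and 95.2 CPM), Epha7 (64.8 and 64.2 CPM) and Ephb2 (57.9 and 50.5 CPM) were the other Eph receptors. Ephrins were read from the same class, with Efnb2 at 195 and 185 CPM, Efna5 at 178 and 145 CPM and Efna2 at 54.2 and 52.3 CPM. Sema6a (239 and 216 CPM) and Sema5a (162 and 173 CPM) were the semaphorins of this group, and Plxna2 (113 and 129 CPM) its plexin. Robo1 (209 and 142 CPM), Robo2 (60.9 and 62.9 CPM) and Slit2 (133 and 142 CPM) covered the Slit pathway. Unc5c (55.7 and 62.4 CPM) and Ntn1 (51.4 and 75.9 CPM) covered the netrin pathway. The 2 radial glia-like clusters differed in both. Robo1 stood at 64.6 and 57.0 CPM in the cluster led by Pax6 and at 405 and 258 CPM in the cluster led by Ttr and Otx2. Ntn1, which is made by ventral midline cells, stood at 10.1 and 6.70 CPM in the first and 108 and 170.0 CPM in the second.

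Neuron-like cells had 47 measured guidance genes, the most of the 5 classes compared between genotypes, and 23 at 50 CPM or more. The Slit receptors were the highest, with Robo1 at 439.8 and 449 CPM and Robo2 at 385 and 307 CPM, and their ligand Slit2 at 86.0 and 92.3 CPM. Plexins were Plxna2 (310.0 and 299.5 CPM), Plxna1 (93.1 and 126 CPM), Plxnc1 (90.1 and 88.4 CPM), Plxna4 (73.8 and 98.7 CPM) and Plxna3 (55.0 and 57.7 CPM). Plxnc1 is the receptor of Sema7a, which was highest in vessels. Semaphorins were Sema6a (233 and 246 CPM), Sema6d (106 and 98.7 CPM) and Sema5a (58.4 and 73.8 CPM). Eph receptors were Epha5 (282 and 251 CPM), Epha4 (249.9 and 281 CPM), Ephb1 (206 and 201 CPM), Epha3 (147 and 161 CPM), Epha7 (93.5 and 84.0 CPM) and Ephb2 (65.2 and 71.8 CPM). Ephrins, the ligands of these receptors, were Efnb2 (192 and 145 CPM), Efna5 (190.4 and 216 CPM), Efna2 (71.2 and 71.3 CPM) and Efnb3 (61.2 and 72.3 CPM). Netrin receptors were Unc5c (121 and 127 CPM) and Unc5d (57.3 and 53.3 CPM). The Neurod6 cluster, which also carried 12 of 13 neuron markers, held the highest plexin and Eph levels of the 9 classes plotted. Plxna2 stood at 803 CPM (764 to 843) and 903 CPM (867 to 941) in it and Epha5 at 722 CPM (685 to 760.3) and 739.7 CPM (707 to 774).

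The genotype comparison asked which guidance genes differed between the libraries within a cell class. A gene was called higher or lower by size where its CPM differed 1.5-fold or more and the 95% counting interval of the ratio excluded 1. In endothelial-like cells 4 of the 31 measured genes were higher by size in the Foxq1iECKO library, against 0.935% of the 8019 genes measured, and 1 was lower, against 0.91%. Those 4 were Unc5c, Slit3, Ntn1 and Epha5, and the lower one was Sema4d. The median log2 ratio was 0.008 over the guidance genes and -0.019 over all genes measured. Immune cells also had guidance genes past the rule: 5 of 24 were higher and 0 lower in macrophage-like cells, and 3 of 21 and 0 in leukocyte-like cells. Median log2 ratios there were 0.28 and 0.38, against -0.002 and -0.027 over all genes measured. The share of all genes past the rule was not counted in those classes. The largest single cluster of the endothelial-like class also differed: 945 of the Foxq1flox/flox cells were in the cluster led by Spock2 and Slco1c1, and 759 of the Foxq1iECKO cells in the cluster led by Tmem255a and Cyp1a1.

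All 5 called genes stood below 20 CPM in both libraries. Unc5c stood at 12.3 CPM (10.6 to 14.2) and 19.7 CPM (17.0 to 22.6) (log2 ratio 0.68, interval 0.38 to 0.97). Slit3 stood at 6.0 CPM (4.85 to 7.34) and 11.3 CPM (9.34 to 13.6) (log2 ratio 0.91, interval 0.51 to 1.32). Ntn1 stood at 5.87 CPM (4.73 to 7.20) and 10.1 CPM (8.27 to 12.3) (log2 ratio 0.79, interval 0.37 to 1.21). These are a netrin receptor, a slit and a netrin, and all were far higher in fibroblast-like cells. Epha5 stood at 7.21 CPM (5.94 to 8.67) and 11.6 CPM (9.61 to 13.9) (log2 ratio 0.69, interval 0.30 to 1.07). Sema4d, a ligand of Plxnb1, stood at 10.7 CPM (9.16 to 12.47) and 6.49 CPM (5.02 to 8.26) (log2 ratio -0.72, interval -1.16 to -0.31). Slit3, Ntn1 and Epha5 reached 10 CPM in the Foxq1iECKO library alone and Sema4d in the Foxq1flox/flox library alone, so a difference was built into how they passed the minimum. With a minimum of 20 CPM, 0 genes were higher and 0 lower. In cells of 3000 UMIs or more none of the 4 kept its call, and 1 other gene, Ephb1, was higher. In the subcluster led by macrophage genes Slit3 stood at 6.56 and 65.9 CPM and Epha5 at 21.0 and 49.9 CPM. With that subcluster left out 1 gene was higher, Unc5c (log2 ratio 0.66), and Sema4d was lower (-0.77). Slit3 (0.44) and Epha5 (0.53) then fell short of 1.5-fold, and Ntn1 (0.94), at 9.89 CPM in the Foxq1iECKO library, of the minimum. Over 16 alternative settings Epha5, Ntn1 and Unc5c kept their call in 11, Slit3 in 10 and Sema4d in 9.

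The genes called higher were also read from macrophage-like cells. In macrophage-like cells Unc5c stood at 13.4 and 17.9 CPM, Slit3 at 7.96 and 13.1 CPM, Epha5 at 10.9 and 13.4 CPM and Ntn1 at 3.66 and 5.47 CPM. Slit3 and Epha5 in endothelial-like cells were at or below those levels in both libraries, as were Plxna4, Plxnc1, Robo2 and Sema4d. Sema4d is a gene of immune cells, at 217 and 178 CPM in macrophage-like cells. Their median depth was 4937 and 4488 UMIs a cell. In cells thinned to 2000 UMIs, Epha5 was seen in 1.07% (0.665 to 1.63%) and 1.22% (0.699 to 1.97%) of endothelial-like cells and in 1.70% (1.08 to 2.54%) and 1.97% (1.39 to 2.72%) of macrophage-like cells. Shares were 1.63% and 2.13% against 1.40% and 2.25% for Slit3 and 1.84% and 3.05% against 2.29% and 2.63% for Unc5c. Ntn1 was the one of the 4 above its macrophage level in both libraries, at 1.12% and 2.06% against 0.665% and 0.877%. Fibroblast markers in endothelial-like cells summed to 355 and 338 CPM, with 6 and 5 of 11 at 10 CPM or more. Neuron markers summed to 220.1 and 252 CPM with 3 of 13, radial glia markers to 36.4 and 57.0 CPM with 1 of 8, and macrophage markers to 25.8 and 36.9 CPM with 1 and 2 of 10. The part of RNA from other cells in the 5 called genes was not tested.

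**Figure D3:**
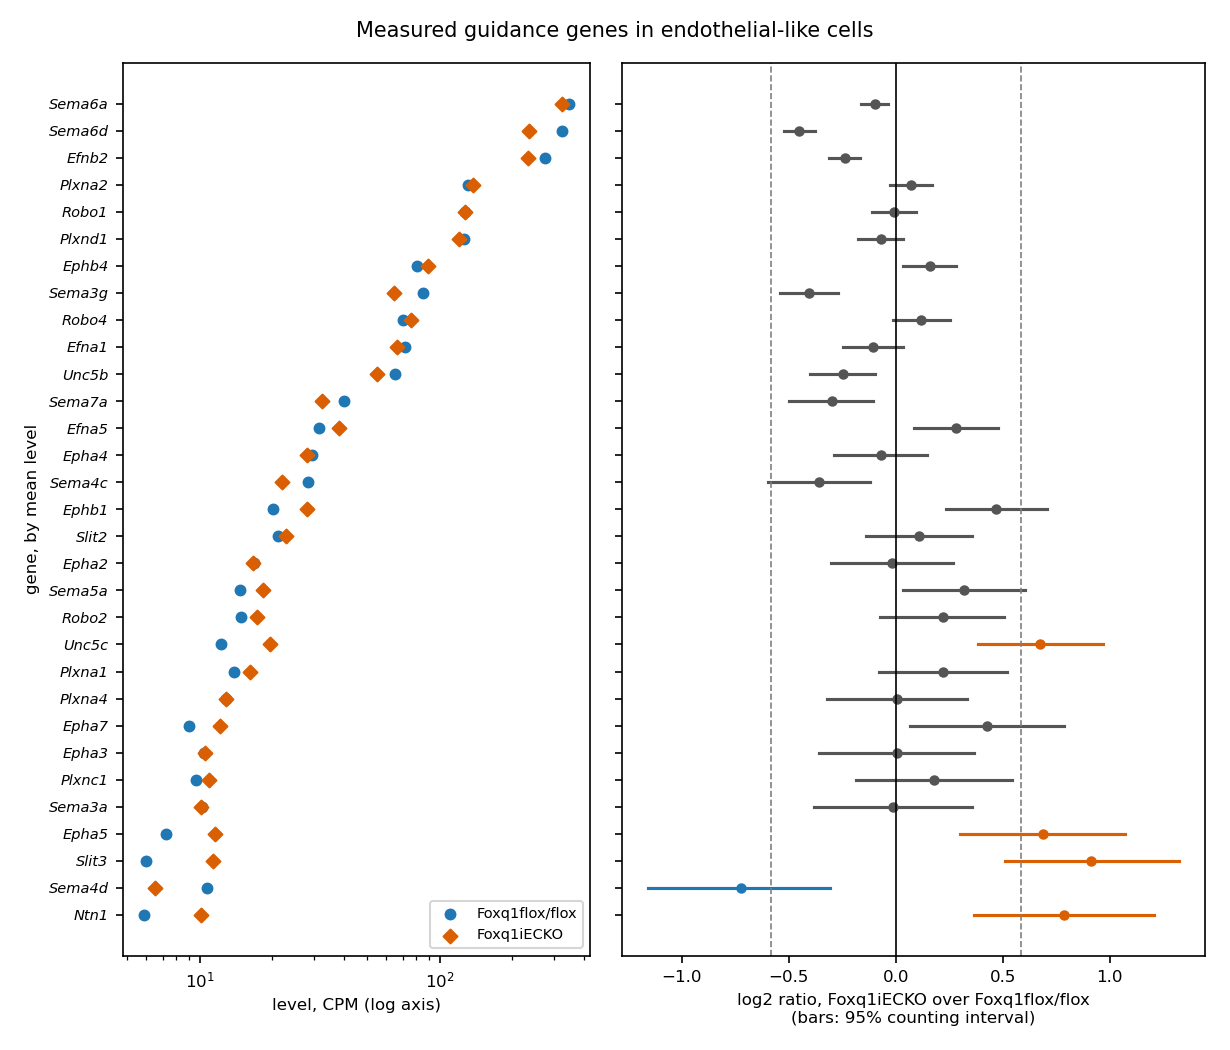
The 31 guidance genes measured in endothelial-like cells, ordered by mean level: CPM in each library on a log axis (left) and the log2 ratio of Foxq1iECKO over Foxq1flox/flox with its 95% counting interval (right), dashed lines at 1.5-fold. The genes past the rule, Unc5c, Epha5, Slit3 and Ntn1 in orange and Sema4d in blue, lie in the lower part, and Sema6a, Efnb2, Plxna2, Robo1 and Plxnd1 lie within 1.5-fold.

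None of the 11 genes at 50 CPM or more in endothelial-like cells was past the rule. Sema6d was the farthest from equal levels (log2 ratio -0.45, interval -0.52 to -0.38), followed by Sema3g (log2 ratio -0.40, interval -0.54 to -0.27), Unc5b (log2 ratio -0.25, interval -0.40 to -0.10) and Efnb2 (log2 ratio -0.24, interval -0.31 to -0.17). All 4 intervals lay below 0, and all 4 genes were lower in the Foxq1iECKO library. Within the barrier subclusters alone the differences were smaller for Sema6d, Sema3g and Unc5b but not for Efnb2. Sema6d stood there at 505 and 457 CPM (log2 ratio -0.14, interval -0.24 to -0.05), Sema3g at 116 and 105 CPM (log2 ratio -0.14, interval -0.35 to 0.06) and Unc5b at 82.2 and 82.6 CPM (log2 ratio 0.01, interval -0.23 to 0.24). Efnb2 stood at 307 and 252 CPM (log2 ratio -0.28, interval -0.41 to -0.15). In the other subclusters all 4 genes were lower in the Foxq1iECKO library. Log2 ratios there were -0.25 (-0.36 to -0.15) for Sema6d, -0.33 (-0.52 to -0.14) for Sema3g, -0.22 (-0.42 to -0.02) for Unc5b and -0.16 (-0.25 to -0.07) for Efnb2. Barrier subclusters, where Sema6d was higher, made up 40.7% of the class in one library and 31.0% in the other, and the part of that share in the pooled ratio was not tested. The receptors Plxna2 (log2 ratio 0.07, interval -0.03 to 0.17), Robo1 (log2 ratio -0.01, interval -0.11 to 0.09) and Plxnd1 (log2 ratio -0.07, interval -0.17 to 0.03) had intervals that included 0. The intervals keep each of these 3 within 1.5-fold.

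Barrier subclusters had 27 measured guidance genes. There 2 were higher by size, against 3.07% of 8104 genes, and 1 was lower, against 1.17%. Unc5c stood at 11.5 and 23.8 CPM and Epha5 at 7.84 and 17.2 CPM, both higher in the Foxq1iECKO library. Sema4d stood at 15.1 and 7.02 CPM and was lower. Epha5 reached 10 CPM in the Foxq1iECKO library alone and Sema4d in the Foxq1flox/flox library alone, so only Unc5c passed the minimum in both. The summed level of all 20 semaphorins was 1185 and 1162 CPM in barrier subclusters, 660 and 593 CPM in the others and 878 and 736 CPM in the whole class.

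In pericyte-like cells 0 of 27 genes were higher by size, against 2.4% of 8801 genes, and 2 were lower, against 3.81%. Ntn4, a netrin of basement membranes, stood at 17.5 CPM (10.8 to 26.7) and 7.01 CPM (3.21 to 13.3) (log2 ratio -1.32, interval -2.63 to -0.13). It passed the minimum through the Foxq1flox/flox library alone, which built in the direction. Unc5c stood at 68.2 CPM (54.2 to 84.7) and 43.6 CPM (32.9 to 56.6) (log2 ratio -0.65, interval -1.16 to -0.14), and it went the other way when cells were taken by their own pericyte markers in place of clusters, at a log2 ratio of 0.14. Over 11 alternative settings Ntn4 kept its call in 9 and Unc5c in 7. Sema6d, the most abundant, had an interval that included 0 (log2 ratio 0.13, interval -0.01 to 0.28). Sema5a was lower but just short of the rule (log2 ratio -0.58, interval -0.86 to -0.31), and its difference had the direction of the summed fibroblast markers given above. The part of those markers in it was not tested.

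Fibroblast-like cells had 0 of 40 genes higher by size, against 1.33% of 8708 genes, and 1 lower, against 1.1%. The lower one was Sema4c, at 17.7 CPM (15.4 to 20.2) and 11.1 CPM (9.25 to 13.1) (log2 ratio -0.68, interval -1.0 to -0.35). It kept its call in 8 of 12 alternative settings. Plxna2 (log2 ratio 0.56, interval 0.43 to 0.69) was the nearest on the higher side. Sema5a (log2 ratio -0.37, interval -0.43 to -0.32), Efna5 (log2 ratio -0.39, interval -0.45 to -0.32) and Robo2 (log2 ratio -0.36, interval -0.42 to -0.30) were lower without reaching 1.5-fold. Radial glia-like cells had 0 of 37 genes higher, against 1.17% of 8990 genes, and 0 lower, against 2.78%. Ntn1 (log2 ratio 0.56, interval 0.33 to 0.79) and Robo1 (log2 ratio -0.55, interval -0.69 to -0.42) were the nearest to the rule, in opposite directions. Neuron-like cells had 0 of 47 genes higher, against 1.97% of 9191 genes, and 0 lower, against 2.03%. Sema3f, a secreted semaphorin, had the lowest ratio there, with an interval that reached 0 (log2 ratio -0.89, interval -1.89 to 0.00). Median log2 ratios of the guidance genes were -0.08 in pericyte-like, 0.02 in fibroblast-like, -0.01 in radial glia-like and 0.06 in neuron-like cells, against -0.03, -0.03, -0.07 and -0.01 over all genes measured.

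**Figure D4:**
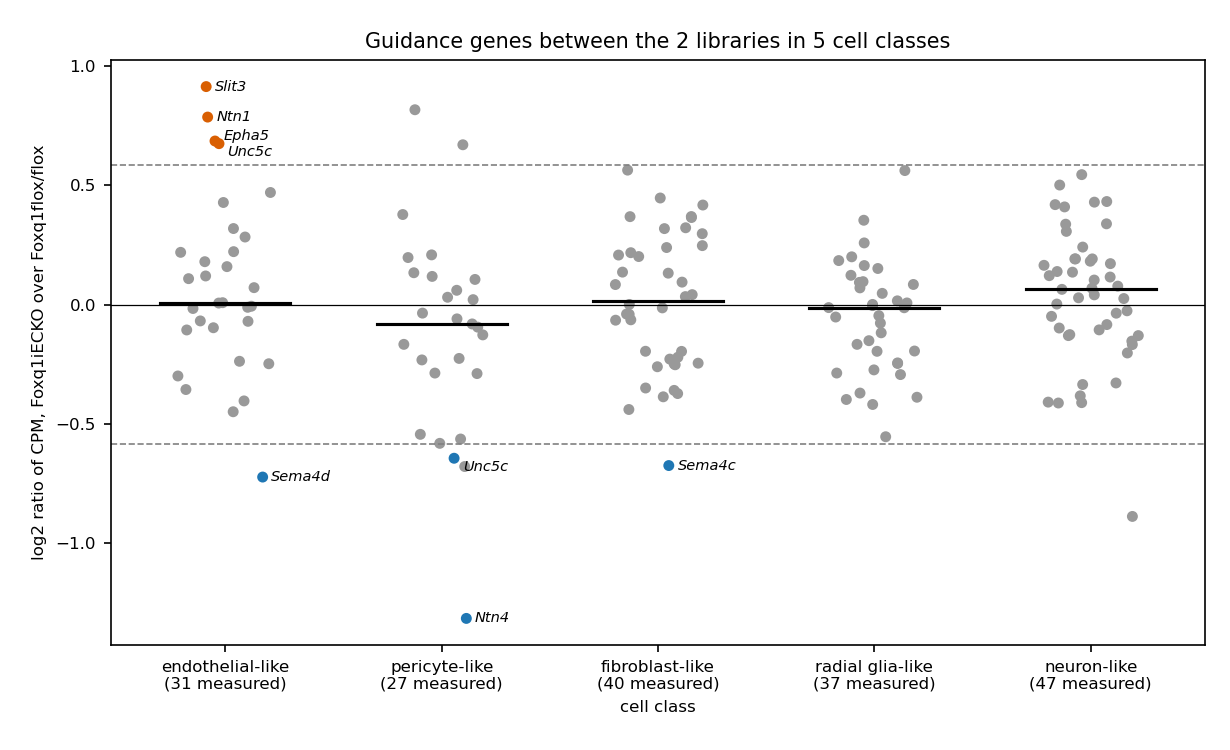
Log2 ratio of CPM, Foxq1iECKO over Foxq1flox/flox (vertical axis), for each measured guidance gene in 5 cell classes (horizontal axis), with the class median as a bar and dashed lines at 1.5-fold. Named points pass the rule: Slit3, Ntn1, Epha5 and Unc5c higher and Sema4d lower in endothelial-like cells, Unc5c and Ntn4 lower in pericyte-like cells and Sema4c lower in fibroblast-like cells.

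Lymphatic cells, cartilage-like cells and the Neurod6 and Ibsp clusters were not part of that comparison. Their values are given without a call. Of 25 genes measured in lymphatic endothelial-like cells, Ntn1 stood at 15.2 and 27.1 CPM (log2 ratio 0.83, interval 0.28 to 1.40). Slit2 was at 6.77 and 13.0 CPM (log2 ratio 0.94, interval 0.12 to 1.81) and passed the minimum through the Foxq1iECKO library alone. Sema6d was lower, at 102 and 66.5 CPM (log2 ratio -0.62, interval -0.89 to -0.35). Of 42 measured in the Neurod6 cluster, 2 secreted semaphorins were lower. Sema3a stood at 39.0 and 17.8 CPM (log2 ratio -1.13, interval -1.69 to -0.58). Sema3e stood at 10.0 and 3.96 CPM (log2 ratio -1.34, interval -2.59 to -0.17) and passed the minimum through the Foxq1flox/flox library alone. Of 36 measured in cartilage-like cells, Epha3 and Slit2 were higher by 1.5-fold or more and 0 genes lower. Of 39 measured in the Ibsp cluster, Epha3 was higher, at 88.8 and 137 CPM (log2 ratio 0.62, interval 0.36 to 0.89). Ntn1 (1.49, 0.80 to 2.24) and Sema3e (0.87, 0.26 to 1.51) were also higher there. Plxna4 was lower, at 45.5 and 29.3 CPM (log2 ratio -0.64, interval -1.08 to -0.19).

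Single cells were also counted by whether they held a UMI of a vessel gene. After thinning to 2000 UMIs a cell, Plxnd1 was seen in 23.3% (21.5 to 25.3%) and 19.4% (17.3 to 21.7%) of endothelial-like cells, 1.06% and 1.17% of neuron-like cells and 1.74% and 1.34% of fibroblast-like cells. Neurons are no blank for Plxnd1, which some of them use, and the Neurod6 cluster held it at 23.5 and 20.6 CPM. Robo4 was seen in 15.0% and 15.9% of endothelial-like against 0.327% and 0.78% of neuron-like cells, and Sema3g in 14.4% and 12.1% against 0.49% and 0.585%. Sema6d was seen in 44.7% (42.5 to 47.0%) and 36.3% (33.7 to 38.9%) of endothelial-like cells, and without thinning in 68.2% and 60.6%. Without thinning Plxnd1 was seen in 46.1% and 40.8%, Robo4 in 32.8% and 31.8% and Sema3g in 29.1% and 23.8%. Median depth was 4273 and 4020 UMIs in endothelial-like cells, 3129 and 2845 in neuron-like cells and 4077 and 3751 in fibroblast-like cells.

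Other genes of these pathways were taken as 3 lists of 57 genes: 9 co-receptors, 5 further ligands and 43 cytoplasmic effectors. In endothelial-like cells 39 of them were measured, 1 was higher and 0 lower by size, against 0.935% and 0.91% of all genes measured. The higher one was Dcc, the attractive netrin receptor, at 20.6 and 33.4 CPM (log2 ratio 0.70, interval 0.47 to 0.92). The neuropilins, co-receptors of class 3 semaphorins, stood at 311 and 286 CPM for Nrp1 and 311 and 345 CPM for Nrp2, near the levels of Sema6a and Sema6d. Flrt2, a ligand of Unc5 receptors, stood at 282 and 344 CPM. Pericyte-like cells had 47 measured, with 1 higher, the adhesion molecule Nrcam (4.16 and 15.6 CPM; log2 ratio 1.90, interval 0.45 to 3.67), and 0 lower, against 2.4% and 3.81%. Nrcam reached 10 CPM in the Foxq1iECKO library alone. Fibroblast-like cells had 43 measured and 0 in either direction, against 1.33% and 1.1%. Radial glia-like cells had 47 measured, 0 higher and 1 lower, Vav3 (44.1 and 25.6 CPM; log2 ratio -0.79, interval -1.09 to -0.48), against 1.17% and 2.78%. Neuron-like cells had 52 measured, with Farp2, an exchange factor acting below plexins, higher (25.0 and 37.6 CPM; log2 ratio 0.59, interval 0.15 to 1.02) and 0 lower, against 1.97% and 2.03%. Median log2 ratios over the 3 lists lay between -0.14 in radial glia-like cells and 0.05 in neuron-like cells.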

How the data were processed

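Single cells of E12.5 mouse brain, enriched with CD31 microbeads, were measured in 1 library for each genotype. The authors deposited raw UMI counts per gene and cell barcode as sparse matrices. Reads were trimmed with fastp 0.24.0 and counted with STARsolo 2.7.11b on mm10, per the submitters' processing notes. Without a statement on strand, Plxna4 and the opposite-strand transcripts named after it may share reads. The lowest deposited barcode held 500 UMIs.

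Barcodes below 500 genes or 1000 UMIs, or with over 20% of UMIs from mitochondrial genes, were dropped, and predicted doublets (534 and 516) were removed, with Scrublet at an expected 8%. Counts were scaled to 10000 per cell, and 2000 variable genes without the guidance genes gave 30 principal components, 20 neighbours and 27 clusters at resolution 1 (scanpy 1.11.5, leidenalg 0.10.2). Clusters were named from 18 marker lists, with 3 or more markers at 50 CPM and 2-fold. A further clustering of endothelial-like cells used resolution 0.6 and 6 subtype lists. UMIs were summed per class and library and divided by the class total to give CPM, with exact Poisson intervals, and ratios had exact conditional binomial intervals at 95% (SciPy 1.17.1). Shares of cells had exact Clopper-Pearson intervals.

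A gene was measured at 10 CPM in at least 1 library and called by size at 1.5-fold with an interval that excluded 1. Named were all guidance genes at 50 CPM in the 5 main classes, those past a rule and the most abundant of each family in endothelial-like cells. The guidance genes and all lists were chosen with earlier results of these data known. With 1 library per genotype there was no test and no batch could be told apart from genotype. Simulated counts with known changes were used to check the size rule. Gene positions are GENCODE vM21, which 66 of 66 guidance gene IDs matched, and 13 symbols that share a prefix, such as Ntng1 and Slitrk1, were no members. Alternatives covered scaling (TMM in edgeR 4.0.16, median of ratios in DESeq2 1.42.0), minimum level, cell filter, doublets, cluster resolution, cluster weights and a marker gate per cell. Other alternatives were chosen after seeing the data: barrier subclusters alone, endothelial subclusters weighted equally, the subcluster with the highest summed macrophage markers left out, and cells of 3000 UMIs or more.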

Additional observations from a re-analysis of the deposited data

Results flagged for a closer look

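Unc5c, a netrin receptor, differed between vessel cell types in the direction of its difference between libraries. Its log2 ratio of Foxq1iECKO over Foxq1flox/flox was 0.68 in endothelial-like cells and -0.65 in pericyte-like cells. The pericyte-like ratio was 0.14 (counting interval -0.69 to 1.02) when cells were taken by their own markers, the direction of endothelial-like cells. Fibroblast markers, from cells that held Unc5c at 113 and 145 CPM, summed to 4929 and 3385 CPM in the pericyte-like class, and their part in the ratio was not tested. Each group had 1 library of each genotype, so the difference between these cell types was not tested.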

How the results depend on the processing

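With 1 library per genotype no library could be left out, and no interval covers the spread between embryos. No paired analysis was possible because each genotype had 1 library. Pericyte-like cells were 1 cluster and gave no value with clusters weighted equally. The counts of guidance genes past the size rule were small, so single genes moved them. In endothelial-like cells 4 were higher, against 2 in barrier subclusters alone (Epha5 and Unc5c), 1 in cells of 3000 UMIs or more (Ephb1, none of the 4), 1 without the subcluster led by macrophage genes (Unc5c), 0 at a minimum of 20 CPM and 2 with the stricter cell filter (Ntn1 and Ephb1). The number higher was 3 under the marker gate, with the mixed cluster added or at resolution 0.5. It was 6 with endothelial subclusters weighted equally (those 4 with Epha7 and Sema5a). The 1 lower became 0 with clusters or endothelial subclusters weighted equally, doublets kept, the marker gate, 20 CPM, the mixed cluster added or resolution 0.5. In fibroblast-like cells 0 higher became 1 under TMM, cells of 3000 UMIs or more, doublets kept or the stricter filter, and 1 lower became 0 with doublets kept, the marker gate, 20 CPM or the stricter filter. In neuron-like cells 0 higher became 2 in cells of 3000 UMIs or more and 3 under the marker gate, and 0 lower became 1 under TMM, median of ratios, doublets kept or the gate. In pericyte-like cells 0 higher became 1 under TMM, median of ratios, doublets kept, guidance genes among the variable genes, resolution 0.5 or 1.5 or the stricter filter. There 2 lower became 0 in cells of 3000 UMIs or more and 1 under median of ratios, 20 CPM or the stricter filter. With doublets kept the 2 lower became 3, with Sema3a added. They also became 3, with Sema5a added, with guidance genes among the variable genes or at resolution 0.5 or 1.5. In radial glia-like cells 0 higher became 1 under TMM, median of ratios, cells of 3000 UMIs or more, equal cluster weights or the gate and 2 at resolution 0.5. There 0 lower became 1 in cells of 3000 UMIs or more, at resolution 1.5 or with the stricter filter and 2 under the gate or a minimum of 5 CPM. A minimum of 20 CPM tests fewer genes, and for the other settings the cause was not tested. Unc5c in pericyte-like cells reversed, to a log2 ratio of 0.14 under the marker gate. All 92 named ratios stayed within their counting interval under TMM and median of ratios. Another minimum cannot change a ratio. Under the marker gate 67 stayed and 24 others moved. With clusters weighted equally 67 stayed and 14 moved, with the mixed cluster added 7 and 10, and in barrier subclusters alone 9 and 8. Scaling moved the log2 ratios by at most -0.08.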

Other observations

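Guidance genes were also read from immune cells, and those named here were found in other classes too. In macrophage-like cells Sema4d, a semaphorin of the immune system, stood at 217 and 178 CPM in the Foxq1flox/flox and Foxq1iECKO libraries (log2 ratio -0.29, counting interval -0.39 to -0.19), and Plxnc1, the receptor of Sema7a, at 76.4 and 74.0 CPM. Plxnb2, a receptor of class 4 semaphorins, stood there at 43.4 and 49.0 CPM, and Sema4b at 34.7 and 36.8 CPM. Fibroblast-like cells held Plxnb2 at 24.9 and 26.3 CPM. Leukocyte-like cells held Plxnc1 at 172 and 164 CPM and Sema4d at 164 and 131 CPM. Genes that were high in mesenchyme and neural cells were also seen at low levels in macrophage-like cells: Epha7 stood at 6.69 and 16.7 CPM (1.32, 0.87 to 1.79) and Slit2 at 10.4 and 17.9 CPM (0.79, 0.40 to 1.18). Whether these UMIs came from free RNA was not tested.

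In the cluster with both endothelial and pericyte markers, Sema6d was the most abundant guidance gene, at 609 and 495 CPM (log2 ratio -0.30, counting interval -0.37 to -0.23). Sema6a at 320.1 and 265 CPM and Efnb2 at 217 and 179.8 CPM followed it, the same 3 genes that led in endothelial-like cells.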
